A study of Mus musculus with 7 samples.

Results

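The genes described here were 9 homeodomain transcription factors of the TALE class, Pbx2, Pbx3, Meis1, Meis2, Pknox1, Pknox2, Tgif1, Tgif2 and Irx3, taken by symbol from the 55484 genes listed in an RNA-seq count table. The table held 4 libraries of mouse embryonic fibroblasts (MEF) and 3 libraries of mouse embryonic stem cells (mESC), and every sample was labelled as C57/Bl6 background, with no treatment, age or time among the sample characteristics. The libraries accompanied a benchmark of chromatin accessibility sequencing on different sequencers, in which RNA levels of the same cell types served as a readout to set beside accessibility. In that benchmark MEFs were sorted as Thy1-positive cells and mESCs as Thy1-negative, Ssea1-positive and Epcam-positive cells, but the sort was described for the accessibility libraries and was not stated for the RNA. The RNA extraction text attached to the samples named blood stem cells of young and aged mice instead of either labelled cell type. The column names of the table carry the letter O in every MEF library and Y in every mESC library, which no source used here explains, so whether the letters stand for an age or anything else is not known. Of the 9 genes, 8 passed the filter on low counts and were tested among 16580 genes, and Tgif2 was at 0 counts in every library.

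TALE homeodomains carry an extra amino acid loop between the first helices of the DNA-binding domain. PBX proteins bind DNA as partners of HOX proteins and of MEIS or PKNOX (also called PREP) proteins, and binding to MEIS or PKNOX holds PBX in the nucleus. TGIF proteins are repressors that recruit corepressors to SMAD and retinoid receptor complexes, and Iroquois (IRX) proteins pattern neural, heart and limb tissue. In fibroblasts and embryonic mesenchyme PBX, MEIS and HOX factors are known for positional identity.

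The recognition helix, which lies in the major groove of DNA, differs between some of these subfamilies at the residue between its Trp-Phe pair and the following Asn. The 30 coding bases around that residue are shown for all 9 genes, with the codon of the residue in capitals, since it is glycine in the PBX genes, isoleucine in the MEIS, PKNOX and TGIF genes and alanine in Irx3. Sequences run 5′ to 3′ on the coding strand and were read from GRCm38 with the GENCODE M21 annotation.
Pbx2: gtttccaactggttcGGTaacaagcgaatt
Pbx3: gtatccaactggtttGGCaacaaacgaatc
Meis1: gtgaacaattggtttATTaatgcccggaga
Meis2: gtgaacaactggtttATCaatgccagaaga
Pknox1: gtcaacaactggttcATCaacgcgagaaga
Pknox2: gtaaacaactggttcATCaatgccaggagg
Tgif1: gtctgtaactggttcATCaacgcccgccgc
Tgif2: atatgtaactggttcATCaatgcccgtcgt
Irx3: gtgtccacctggttcGCCaacgcgcgccgg

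These bases lay in a single exon in Pbx2 (chr17:34594801-34594830, plus strand), Pbx3 (chr2:34178313-34178342, minus strand), Tgif1 (chr17:70845243-70845272, minus strand), Tgif2 (chr2:156853129-156853158, plus strand) and Irx3 (chr8:91800517-91800546, minus strand). In the 4 MEIS and PKNOX genes an exon junction fell after base 11 of the 30, so the stretch was split by an intron in Meis1 (chr11:18885633-18905699, minus strand), Meis2 (chr2:115868785-115921682, minus strand), Pknox1 (chr17:31602852-31603205, plus strand) and Pknox2 (chr9:36894480-36895321, minus strand). Over the 189 coding bases of the whole homeodomain, paralogs of a subfamily were 75.1% (Tgif1 and Tgif2) to 84.1% (Meis1 and Meis2) identical in 4 pairs, and genes of different subfamilies were 45.0% to 71.4% identical in 32 pairs.

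Libraries held 6528643 to 11441278 counts in MEF and 7462710 to 8193825 in mESC, so that a level of 3 counts, the limit that a count of 0 allows, was 0.288 to 0.477 CPM (counts scaled to a common library size). Counts were of unique molecules in a 3′-biased assay, and the limits cover counting error only. All 12 pluripotency markers were higher in mESC and all 13 fibroblast markers were lower in the edgeR quasi-likelihood fit, with p-values adjusted by Benjamini and Hochberg's method over all tested genes. The pluripotency markers summed to 4300 to 4457 CPM in mESC and 123 to 169 CPM in MEF, and the fibroblast markers to 25599 to 41902 CPM in MEF and 198 to 232 CPM in mESC. Klf4 alone was at 78.4 to 121 CPM in MEF, and the median MEF level of the 12 pluripotency markers was 0.766% of their mESC level. Blood markers, checked because of the extraction text, summed over 12 genes to 8.38 to 19.6 CPM in MEF and 5.79 to 11.7 CPM in mESC, 1 of the 5 tested was lower in mESC, and the pan-blood gene Ptprc had 1 to 17 counts in MEF and 0 to 1 in mESC. Endothelial markers summed to 16.9 to 26.1 CPM in MEF and 31.6 to 55.2 CPM in mESC, and of the 4 tested 1 was higher in mESC, Pecam1 at 29.9 against 2.79 CPM. Neural markers summed to 149 to 270 and 84.1 to 107 CPM, with Neurod1 and Elavl3 higher in mESC, Tubb3 and Nes lower and Pax6 not past the test. Muscle markers summed to 22.1 to 29.4 and 13.4 to 32.5 CPM, and 0 of the 2 tested by edgeR passed (adjusted p = 0.600 for Des and 0.706 for Myf5). Their part in the results was not tested. The study calls its expression replicates biological, but states fewer of them for MEF than the table holds. No label ties the libraries to separate cultures or embryos, so the p-values measure the spread between these libraries, which may be technical in part.

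The MEF libraries were not alike. Those of 9176467 and 6528643 counts were both above the other pair for 10 of the 13 fibroblast markers and both below it for 2 (Thy1 and Vim). The matrix proteoglycan gene Dcn was at 467 and 522 CPM in them and at 121 and 149 CPM in the libraries of 11441278 and 7312679 counts. Fits added after the data were seen left out either pair. Their counts of TALE genes are given without the share of all genes called, so they are read against no background. In each, 5 TALE genes were lower in mESC. The number higher was 2 without the pair of higher Dcn, where Pbx2 passed (log2 fold change 1.05, adjusted p = 0.0332), and 1 without the other pair, where it did not (0.55, adjusted p = 0.307).

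Of the 8 tested TALE genes, 5 were lower in mESC (Meis1, Meis2, Irx3, Pknox2 and Pbx3), 1 was higher (Tgif1) and 2 (Pbx2 and Pknox1) did not pass an adjusted p of 0.05. Over all genes tested, 25.0% were lower and 22.8% were higher. The median log2 fold change of the 8 genes, mESC against MEF, was -1.76, beside 0.037 over all genes. MEF and mESC libraries were fully separated for 6 of the 8, against 52.1% of all genes whose libraries did not overlap. Without scaling beyond library size, the median of all genes moved up by 0.28 on the log2 scale and the share of calls that were higher in mESC went from 47.7% to 60.8%. In that fit 2 of the TALE genes were higher (Pbx2 was added) and the same number, 5, were lower. In bulk RNA, fewer cells expressing a gene and less RNA of it per cell cannot be told apart.

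**Figure D1:**
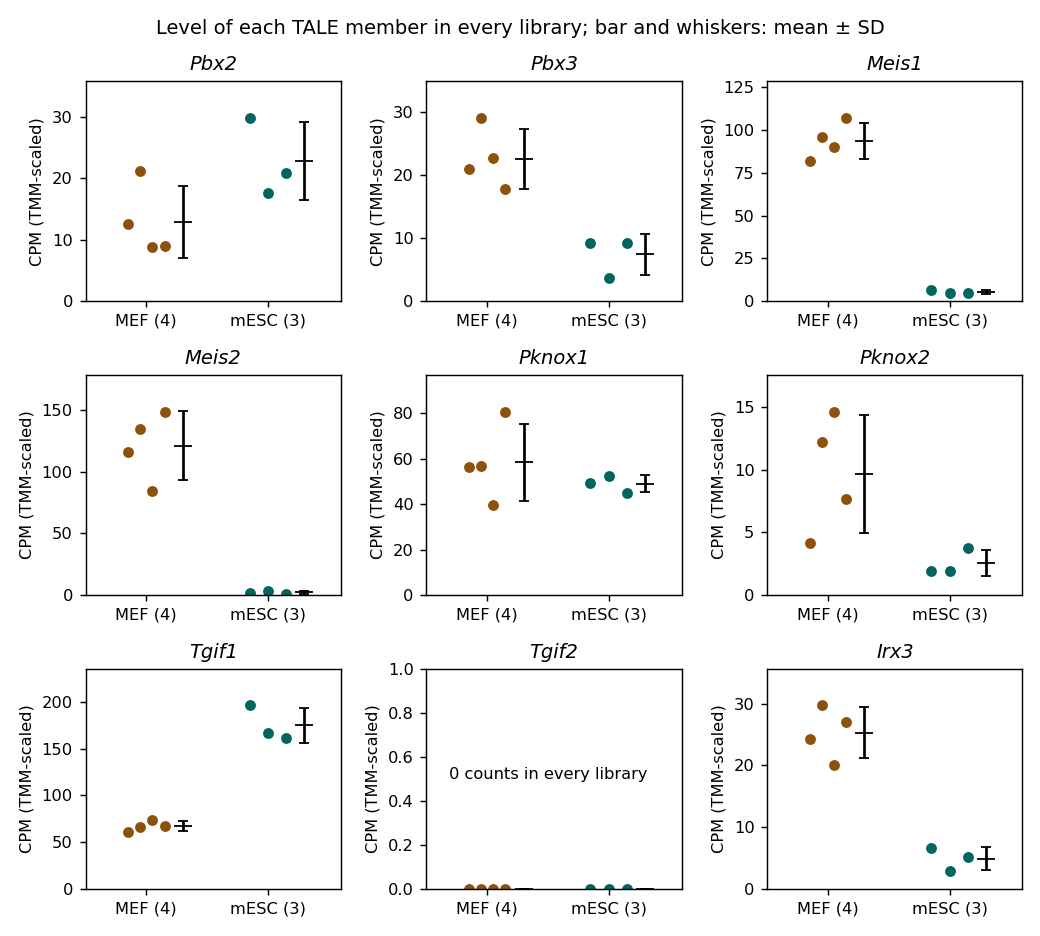
Level of each of the 9 TALE genes in CPM (library sizes scaled by TMM; linear axes starting at 0, each gene on its own axis), with a point for each of the 4 MEF and 3 mESC libraries ordered from the deepest to the shallowest, and the mean ± SD beside them. Meis1 lies between 82.0 and 107 CPM in MEF and between 4.84 and 6.83 CPM in mESC, Tgif1 is the gene whose mESC points all lie above the MEF points, and Tgif2 is at 0 throughout.

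Meis1 and Meis2, the partners that form complexes with PBX and HOX proteins on DNA, had the largest differences among the 9 genes. Meis1 (chromosome 11, 18879817 to 19018985, minus strand) was at 82.0, 95.9, 90.1 and 107 CPM in the MEF libraries, from the deepest to the shallowest. It was at 6.83, 4.89 and 4.84 CPM in the mESC libraries in the same order. The lowest MEF library was far above the highest mESC library, and the means were 93.8 ± 10.6 CPM (SD, n = 4) and 5.52 ± 1.14 CPM (SD, n = 3). Meis1 was 16.9-fold lower in mESC, with a log2 fold change of -4.08 (SE 0.213, adjusted p = 1.69e-07).

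Meis2 (chromosome 2, 115863064 to 116065839, minus strand), known from palate, heart and limb development, was at 116, 135, 83.8 and 149 CPM in MEF. In mESC it was at 1.84, 3.64 and 1.30 CPM, which were 17, 32 and 11 counts. Every MEF library was above every mESC library, and the mESC level was above the limit of 3 counts in each. The means were 121 ± 28.0 CPM in MEF and 2.26 ± 1.22 CPM in mESC, a 53.1-fold lower level (log2 fold change -5.73, SE 0.368, adjusted p = 6.58e-07). Both MEIS genes passed in all 13 alternative fits, a test against a fold change of 2 included. Of the 50-base sequences of Meis1 transcripts, 17.0% also occur in another gene in either orientation. Gm37818, whose exons overlap those of Meis1, held 9.04% of them and itself had 0 to 8 counts a library.

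Of Pbx2 and Pbx3, the latter fell and the former did not pass the test. Pbx3 (chromosome 2, 34171457 to 34373142, minus strand), a HOX partner of the developing nervous system, was at 20.9, 29.1, 22.7 and 17.8 CPM in MEF. It was at 9.21, 3.75 and 9.32 CPM in mESC. The lowest MEF value was above the highest mESC value, and the mESC library of 8057985 counts was the lowest of all. The means were 22.6 ± 4.77 and 7.43 ± 3.19 CPM, a 3.05-fold lower level in mESC (log2 fold change -1.61, SE 0.343, adjusted p = 0.00280). Against a fold change of 2 the adjusted p was 0.0573, so that a drop beyond that size was not shown.

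Pbx2 (chromosome 17, 34591266 to 34597400, plus strand), a broadly expressed paralog of Pbx3, was at 12.6, 21.2, 8.84 and 8.91 CPM in MEF. It was at 29.8, 17.6 and 20.8 CPM in mESC. The MEF library of 9176467 counts exceeded 2 of the mESC libraries, so that the cell types overlapped. The means were 12.9 ± 5.82 and 22.7 ± 6.33 CPM, with a log2 fold change of 0.81 (SE 0.339, 95% interval 0.061 to 1.56 before adjustment, adjusted p = 0.0714). The call depended on the setting. The adjusted p was 0.0451 with DESeq2, 0.0179 without scaling, 0.0397 with genes kept from 1 count up, and 0.0104 when the MEF library of 9176467 counts was left out (log2 fold change 1.15), and up to 0.271 when other libraries were left out.

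The PKNOX genes encode the remaining partners that bind PBX. Pknox1 (chromosome 17, 31564734 to 31607693, plus strand), expressed in most tissues, was at 56.3, 56.7, 39.5 and 80.6 CPM in MEF. It was at 49.4, 52.3 and 44.8 CPM in mESC. All 3 mESC values lay within the MEF range. The means were 58.3 ± 16.9 and 48.8 ± 3.75 CPM, with a log2 fold change of -0.25 (SE 0.224, adjusted p = 0.388). Its 95% interval ran from -0.75 to 0.24, which is 0.594 to 1.18 times the MEF level. A 2-fold difference in either direction lay outside it, and differences between those limits did not. Without scaling it was 0.017 (adjusted p = 0.961), so Pknox1 has no direction that holds across settings.

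Pknox2 (chromosome 9, 36890982 to 37147407, minus strand), the more tissue-restricted paralog, was at 4.13, 12.2, 14.6 and 7.63 CPM in MEF and spread widely among those libraries. In mESC it was at 1.95, 1.93 and 3.78 CPM. The cell types did not overlap, but the lowest MEF library, of 11441278 counts, was close to the highest mESC library. The means were 9.65 ± 4.69 and 2.55 ± 1.06 CPM, a 3.76-fold lower level in mESC (log2 fold change -1.91, SE 0.50, adjusted p = 0.00904). The adjusted p was at most 0.0385 when any library was left out, and 0.0602 against a fold change of 2.

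Tgif1, a corepressor of SMAD signalling, was the member that was higher in mESC. Tgif1 (chromosome 17, 70844205 to 70853546, minus strand) was at 60.6, 66.0, 73.9 and 67.6 CPM in MEF. It was at 196, 167 and 162 CPM in mESC. The groups did not overlap and the MEF libraries were close together, at 67.0 ± 5.47 CPM against 175 ± 18.6 CPM. Tgif1 was 2.61-fold higher in mESC (log2 fold change 1.38, SE 0.145, adjusted p = 2.18e-05), and passed against a fold change of 2 (adjusted p = 0.0140).

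Tgif2 (chromosome 2, 156840007 to 156855570, plus strand), its close paralog, had 0 counts in all 7 libraries, which allows up to 0.288 to 0.477 CPM depending on the library. The annotation around it limits what that 0 means. Of its exonic bases 61.6% lie under exons of the opposite strand, as do 100% of the last 500 bases of the gene, where a 3′-biased assay places its reads. Read in either orientation, 67.5% of the 50-base sequences of Tgif2 also occur in another gene, which counts the overlapping exons again. The share in 5430405H02Rik was 54.7%. That opposite-strand gene had 112 to 157 counts in MEF and 138 to 179 in mESC (log2 fold change 0.053, adjusted p = 0.858). The strand setting of the counting was not given in the sources used here, and whether the overlap bears on the count of 0 was not tested, so the level of Tgif2 is not known from these data. For the transcript read of each of the other 8 genes, 0% of the last 500 bases lay under exons of the opposite strand.

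Irx3, an Iroquois factor of limb, heart and neural tube patterning, was lower in mESC. Irx3 (chromosome 8, 91798525 to 91802067, minus strand) was at 24.3, 29.7, 20.1 and 27.0 CPM in MEF. It was at 6.61, 2.95 and 5.19 CPM in mESC. The lowest MEF value was above the highest mESC value, and the means were 25.3 ± 4.10 and 4.92 ± 1.84 CPM. Irx3 was 5.12-fold lower (log2 fold change -2.36, SE 0.312, adjusted p = 0.00012) and passed in all 13 alternative fits.

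**Figure D2:**
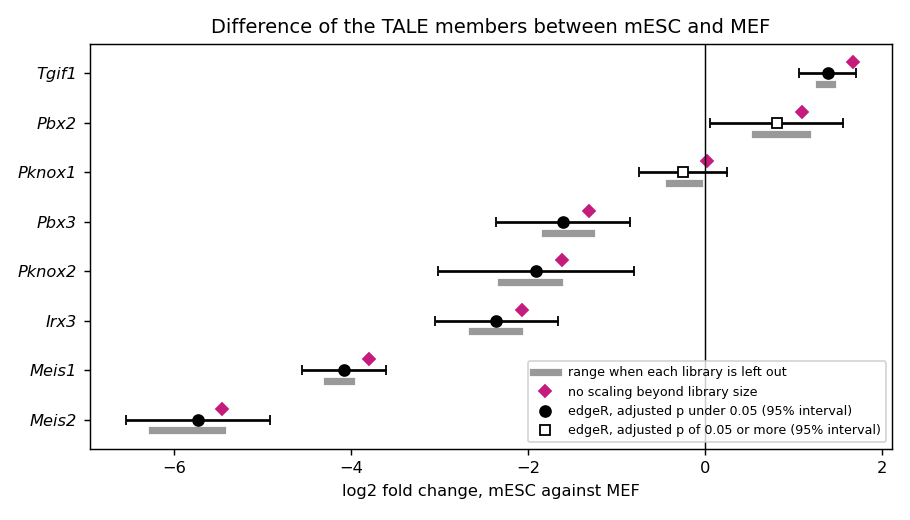
Log2 fold change of the 8 tested TALE genes, mESC against MEF (horizontal axis), with points and 95% intervals from edgeR's quasi-likelihood fit, open squares for an adjusted p of 0.05 or more, grey bars for the range over leaving out each library, and diamonds for the fit without scaling. Meis2 is lowest at -5.73 and Tgif1 highest at 1.38, and the diamond of Pknox1 lies at 0.017, on the other side of 0 from its main value of -0.25.

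Ratios of paralogs within a library do not depend on how libraries are scaled to each other. They were computed as the log2 ratio of counts with 1 added to each, and they still reflect how many 3′ reads each gene yields, so only the difference between cell types is read. The Pbx3 to Pbx2 ratio was 0.73, 0.46, 1.35 and 0.99 in MEF and -1.68, -2.20 and -1.15 in mESC. Pbx3 had more counts than Pbx2 in every MEF library and fewer in every mESC library, with means of 0.88 ± 0.38 and -1.68 ± 0.53. The Meis2 to Meis1 ratio was 0.50, 0.49, -0.10 and 0.47 in MEF and -1.83, -0.42 and -1.81 in mESC, so the cell types did not overlap (means 0.34 ± 0.30 and -1.35 ± 0.81). The Pknox2 to Pknox1 ratio was -3.74, -2.20, -1.42 and -3.37 in MEF and -4.59, -4.68 and -3.53 in mESC, where the mESC library of 7462710 counts lay within the MEF range. These ratios were given no test.

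**Figure D3:**
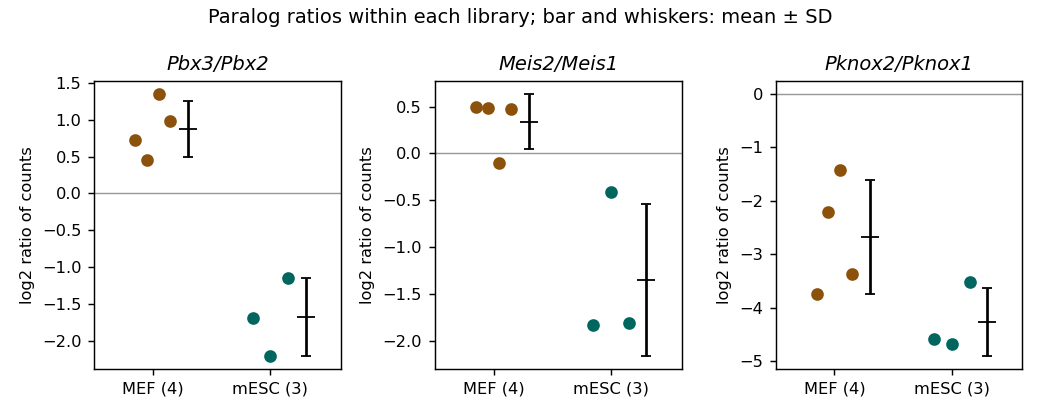
Log2 ratio of the counts of 2 paralogs within each library (vertical axes; a line marks equal counts), with a point for each of the 4 MEF and 3 mESC libraries and the mean ± SD beside them. The Pbx3 to Pbx2 ratio lies above 0 in all MEF libraries and below 0 in all mESC libraries, whereas the Pknox2 to Pknox1 ratio overlaps between cell types.

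The mouse has further TALE genes that were not among the 9, and 10 of them were read from the table for context. Of the 6 that were tested, 4 were lower in mESC, 1 was higher and 1 did not pass, with a median log2 fold change of -3.05. Pbx4, a further PBX gene, was higher in mESC, at 8.24 ± 2.53 CPM against 2.46 ± 0.552 CPM in MEF (3.33-fold, adjusted p = 0.00328). Meis3 was at 16.1 ± 4.32 CPM in MEF and had 3 to 4 counts in each mESC library (log2 fold change -5.36, adjusted p = 2.43e-06).

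Among the other Iroquois genes, Irx1 was at 65.9 ± 24.4 CPM in MEF with 2 to 8 counts in each mESC library (log2 fold change -6.58, adjusted p = 1.52e-06). The log2 fold change of Irx2 was -2.63 (adjusted p = 8.70e-04) and that of Irx5 was -3.47 (adjusted p = 5.75e-05). Irx4 had at most 1 count in MEF and 1 to 8 in mESC, Irx6 had 0 counts everywhere, and neither was tested. Tgif2lx1 and Tgif2lx2 had at most 1 count in any library. Mkx, the tendon factor Mohawk, was at 4.18 ± 1.81 CPM in MEF and 2.98 ± 0.468 CPM in mESC, and its log2 fold change of -0.50 had a 95% interval from -1.50 to 0.50 (adjusted p = 0.404).

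**Figure D4:**
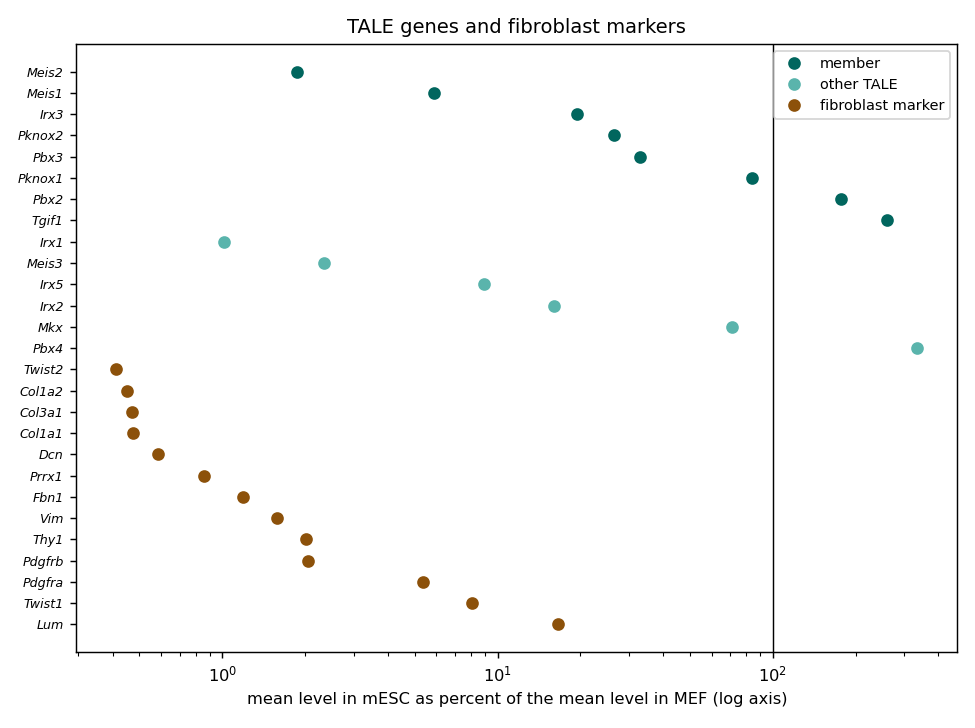
Mean level in the 3 mESC libraries as a percent of the mean level in the 4 MEF libraries (log axis; the line marks 100%) for the 8 tested TALE genes, 6 other tested TALE genes and 13 fibroblast markers. Meis2 lies at 1.87% and Meis1 at 5.88%, within the markers' range of 0.412% to 16.6%, while Irx3, Pknox2, Pbx3, Pknox1, Pbx2 and Tgif1 lie above it.

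The levels left in mESC were set beside those of fibroblast markers. The 13 fibroblast markers were at 0.412% (Twist2) to 16.6% (Lum) of their MEF level in mESC, with a median of 1.18%, and the MEIS genes lay within this range, with Meis2 at 1.87% and Meis1 at 5.88%. Whether RNA from fibroblasts in the mESC libraries gives the low MEIS values was not tested. Irx3 (19.5%), Pknox2 (26.4%) and Pbx3 (32.8%) lay above all 13 markers.

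The PBX and MEIS genes act with HOX proteins, so the 39 Hox genes were counted over the same libraries. Of the 27 tested, 24 were lower in mESC, 1 was higher and 2 did not pass. Hoxa2 had 37 to 56 counts in each MEF library and 0 to 1 in mESC, and Hoxd10 had 4 to 26 counts in MEF and 0 in each mESC library. Hoxc13 was higher in mESC, at 5.66 ± 1.86 CPM against 1.24 ± 1.03 CPM (log2 fold change 2.13, adjusted p = 0.0144, and 0.0543 without the mESC library of 8057985 counts). Hoxb2 was lower by a narrow margin (log2 fold change -0.70, adjusted p = 0.0482), with an adjusted p of 0.207 without scaling and of 0.0327 to 0.143 as each library was left out.

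Of 6 other genes whose proteins are known to act with PBX, 3 were tested. The rest did not pass the filter, with at most 1 count in any MEF library for Pdx1 and Tlx1 (4 to 12 and 1 to 34 in mESC) and 2 to 16 in MEF for Myod1 (0 to 1 in mESC). En1, an engrailed factor of the limb and midbrain, was at 36.7 ± 8.32 CPM in MEF and 1.16 ± 0.392 CPM in mESC (log2 fold change -4.96, adjusted p = 9.87e-07). Pbxip1, a protein that binds PBX and blocks its DNA binding, fell by 2.45 on the log2 scale (adjusted p = 2.66e-05). En2 had 0 to 1 counts in each MEF library and 25 to 63 in mESC (adjusted p = 2.10e-04). Of the 5 genes around Irx3, Irx5 and Fto were lower in mESC (Fto log2 fold change -0.95, adjusted p = 0.00717), Rpgrip1l differed by -0.10 without passing (adjusted p = 0.812), and Irx3os and Irx6 were not tested.

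TGIF proteins are known to act with SMADs, the CTBP and SIN3A corepressors, histone deacetylases and retinoid receptors. Of 12 such genes, 3 were higher in mESC, 8 were lower and 1 did not pass, and without scaling beyond library size 3 were higher and 3 lower. Ctbp2 was at 122 ± 13.1 CPM in mESC and 37.7 ± 10.9 CPM in MEF (log2 fold change 1.70, adjusted p = 9.66e-05), and Sin3a was also higher (1.32, adjusted p = 6.74e-05). Smad3, the receptor-activated SMAD of TGF-beta signalling, was lower (-2.31, adjusted p = 0.00136). Ctbp1 was lower as well (-1.62, adjusted p = 4.06e-05), so the CTBP paralogs differed in opposite directions.

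Start sites of 6 of the 9 genes were in the RefSeq table for GRCm38.p6, and the 250 bases before each start were read. In GENCODE M21 the genes Irx3, Meis2 and Pbx2 begin further upstream. Tgif1 begins at 70853546 on the minus strand, within the window of its most upstream listed start (chr17:70853533-70853782). The windows of its other listed starts therefore lie inside the gene. All 250 bases for Irx3, 158 for Meis2 and all 250 at the Tgif1 start with 2 CG dinucleotides lie in annotated untranslated exons. So do 16 bases for Meis1, and 14 and 36 at the Tgif1 starts with 15 and 18 CG dinucleotides. Those windows describe transcribed sequence in whole or in part. The Pbx2 window (chr17:34592009-34592258, plus strand) lies inside the gene, which begins at 34591266, so it is not the stretch before the GENCODE start. Of its bases, 0 lie in annotated untranslated exons. Over 32851 promoters the median was 6 CG dinucleotides and 52.4% GC. Pbx2 had 27 CGs, Tgif2 22, Tgif1 2 to 18 over its 5 listed starts, Meis1 13, Irx3 13 and Meis2 7. The TGACAG motif of MEIS and TGIF proteins, which 15.9% of promoters hold on either strand, was in none of the windows. The PBX and HOX motif TGATNNAT, which 7.7% of promoters hold, was found at 1 of the 5 Tgif1 starts and in no other window. That Tgif1 window (chr17:70849791-70850040) lies inside the gene. For the other windows this says only that these letters are not in the stretch read.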

How the data were processed

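RNA was measured in 4 MEF and 3 mESC libraries. Per the labels and the study's methods, the authors primed poly(A) RNA with a sample index and unique molecular identifier, demultiplexed reads with Sabre, trimmed them with Cutadapt, aligned them to mm10 with STAR (2.4.2a in the submitters' processing notes, a different version in the study's methods), used Je to collapse the identifiers, and obtained exon counts of uniquely mapped reads from featureCounts. The authors deposited whole-number counts per gene with no normalization. The annotation release and strand setting were not given in the sources used here.

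Table columns name a cell type and were mapped to groups, not to single samples. There were 0 columns left unused. Date-form symbols (26 rows, 0.249% of counts) stayed in the totals. Libraries held 6528643 to 11441278 counts and are named by those totals. No library was a copy of another, since counts of every pair of a cell type differed by more than counting noise (chi-square per degree of freedom 17.56 to 35.33 over genes with at least 20 counts in the pair). This does not tell separate cultures from repeat preparations. Each library was treated as 1 replicate.

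Genes passing filterByExpr (16580 of 55484) were fitted with edgeR 4.0.16's quasi-likelihood test (R 4.3.3, limma 3.58.1) over all 7 libraries, with TMM scaling, no covariates and Benjamini-Hochberg adjustment over all tested genes at 0.05. CPM used TMM-scaled library sizes, log2 CPM a prior count of 2. Ratios of paralogs added 1 to each count. Alternatives were DESeq2 1.42.0, edgeR with DESeq2's size factors, no scaling, no filter beyond 1 count, a stricter filter of 10 counts, a test against a fold change of 2, a prior count or added count of 0.5 and leaving out each library. Leaving out either pair of MEF libraries, split by Dcn level, was added after seeing the data. The scripts were tested on simulated data. Coordinates and coding sequences came from GENCODE M21 on GRCm38, promoters from RefSeq (GRCm38.p6). Residues were read by translating the coding sequences, and no separate amino acid sequences were used. Named genes were all 9 members, each other TALE gene (1 is not reported here and was left out of that list's counts), and in each other list the called genes with the 2 highest and 2 lowest fold changes. Rpgrip1l, Ptprc, Pdx1, Tlx1, Myod1, the single marker genes and the genes that overlap a member were named after their values were seen. The members and lists were chosen with earlier results of these data known.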

Additional observations from a re-analysis of the deposited data

Results flagged for a closer look

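The log2 ratio of Meis2 to Meis1 in the MEF library of 7312679 counts, -0.10, lay apart from the other MEF libraries, the nearest of which was at 0.47. Of 29 groups of values examined in this way 1 stood out, and 1.45 would by chance, since about 1 in 20 groups does. The ratio of that library was still above every mESC library.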

How the results depend on the processing

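Over 13 alternative fits, Meis1, Meis2, Tgif1 and Irx3 kept their direction and their side of the threshold. Pbx3 and Pknox2 did so in 12, the exception being the test against a fold change of 2. Pbx2 passed in 4 fits, and Pknox1 turned from -0.25 to 0.017 without scaling. The TALE genes called higher in mESC numbered 2 with DESeq2, without scaling and with genes kept from 1 count up, and 1 to 2 when each library was left out (2 without the MEF library of 9176467 counts), and those called lower numbered 3 against a fold change of 2. Against that fold change, 1714 of all genes were higher and 2277 lower, 0 Hox genes were higher, 2 TGIF partners were lower and 1 gene around Irx3 was lower. The cause was not tested beyond the stricter criterion itself. With genes kept from 1 count up, 2 Hox genes and 3 PBX partners were higher. Without scaling, 3 TGIF partners were lower. Hox genes called higher numbered 0 to 2 when each library was left out (0 without the mESC library of 8057985 counts, 2 without that of 7462710 counts). The cause of these changes was not tested. Of 334 values for 26 named genes, 314 kept direction and side, 15 were lost, 4 were gained and 1 reversed. Fits in which a gene did not pass the filter or had no adjusted p gave no value for it and were not counted. All 24 values of the paralog ratios moved by less than the spread between libraries. In fits added after seeing the data, 2 TALE genes were higher without the MEF pair of higher Dcn. No paired analysis was possible because the column names could not be matched to single samples. They end in running numbers in both cell types, but nothing says that these numbers are the samples' own or mark a shared batch, so they were not used to pair libraries. With 11 to 32 counts of Meis2 in each mESC library and 3 to 4 of Meis3, counting error limits these folds.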

Other observations

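Within MEF, the libraries of 9176467 and 6528643 counts, which had higher levels of 10 of the 13 fibroblast markers, also held the highest values of several Iroquois genes. Irx2 was at 23.6 and 31.3 CPM in them and at 9.50 and 14.9 CPM in the libraries of 11441278 and 7312679 counts. Irx5 was at 22.3 and 23.1 CPM against 10.9 and 11.3 CPM, and Irx3os had 18 and 10 counts against 0 and 0. Irx3 was at 29.7 and 27.0 CPM against 24.3 and 20.1 CPM, whereas Irx1 did not follow the same order, at 94.9 and 56.5 CPM against 74.4 and 37.8 CPM. Meis1 and Meis2 were also highest in the same pair of libraries, and so was Pknox1 by a narrow margin (56.7 and 80.6 CPM against 56.3 and 39.5 CPM). The other tested TALE genes did not follow the split. These were Pbx2, Pbx3, Pknox2, Tgif1, Pbx4, Meis3 and Mkx, with Pbx3 at 29.1 and 17.8 CPM against 20.9 and 22.7 CPM. The split was not particular to TALE genes. Among the fibroblast markers Lum was at 116 and 140 CPM against 48.3 and 48.0 CPM, and Pdgfra at 85.1 and 77.9 CPM against 44.8 and 54.0 CPM, while the neural progenitor gene Nes ran the other way, at 76.8 and 69.7 CPM against 149 and 152 CPM. It was seen in the values after the fact and was given no test, and no label says what distinguishes those libraries.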
